A study of Mus musculus with 12 samples.

Results

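The response to octyl-L2HG was measured in mouse male germ cells of the leptotene and zygotene stages (LZ), the early stages of meiotic prophase in which chromosomes condense and begin to pair. Octyl-L2HG is L-2-hydroxyglutarate (L2HG) joined to an octyl group, which lets it cross membranes. The genes described here are those whose normalized count averaged 10 or more in the 6 LZ libraries, which kept 13726 of the 49216 genes with counts. A further 6255 of the 55471 genes in the table carry a question mark in place of counts and were not analysed here. Among the genes not kept, 18438 had at least 1 count in these libraries and 17052 had none.

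The cells were sorted by flow cytometry from C57Bl mice that express tdTomato in germ cells. LZ cells stayed in culture for 6 days, either untreated (3 libraries) or with 0.3 mM octyl-L2HG (3 libraries). The other 6 libraries of the series are pachytene and diplotene cells (PD), held for 48 hours either without addition or in 24 mM oxamate, which blocks lactate dehydrogenase. They enter the scaling, the estimate of the spread and a few levels given for reference. The labels call the LZ controls untreated and name no vehicle, so effects of the octyl ester and of L2HG itself cannot be told apart. The series text speaks of 3 independent experiments, called A, B and C below after a code that the column names of the groups share. The promoter that drives tdTomato and the number of animals behind a library do not appear in the labels used here.

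L2HG is a reduced form of 2-oxoglutarate and can compete with it at dioxygenases that demethylate histones and DNA or sense oxygen. Several of the genes below belong to the aryl hydrocarbon receptor (AhR) and NRF2 pathways, which defend cells against foreign and electrophilic compounds. AhR is a transcription factor that waits in the cytosol with chaperones, enters the nucleus when a ligand binds and pairs there with ARNT at sites with the core GCGTG. NRF2 is kept low by KEAP1 until oxidants or electrophiles release it, and then acts with small MAF proteins at antioxidant response elements, whose core is TGANNNNGC, where N is any base.

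Total counts were 10532504 to 15903788 in untreated and 11271410 to 18432143 in treated LZ libraries. The LZ label was checked against markers. The 27 counted markers of meiotic entry, leptotene and zygotene took 1.55% to 1.87% of the counts in untreated and 1.55% to 1.66% in treated libraries, against a mean of 0.320% in untreated PD libraries, and none was at 0. The 34 pachytene and diplotene markers took 0.230% to 0.299% and 0.219% to 0.237%, against 2.77% in untreated PD libraries. Markers of Sertoli cells took 0.0353% to 0.0394% and 0.0327% to 0.0354%, against a mean of 0.00139% in untreated PD libraries. Of these 21 markers 15 had a mean under 10 in the LZ libraries, and of those the receptor gene Fshr alone had no count. Ctsl, Amhr2 and Amh had untreated LZ means of 4471, 147 and 62.2, so this share rests mostly on Ctsl. Markers of peritubular and stromal cells took 0.0237% to 0.0284% and 0.0255% to 0.0284%, against 0.00241% in untreated PD libraries. Of these 15 markers 7 had a mean under 10 in the LZ libraries. Their share rests mostly on Fn1, at an untreated LZ mean of 2807, with Fbln1 next at 246. Markers of Leydig cells stayed at or under 0.00251%, with Insl3, their insulin-like hormone, at 0. Untreated library A stood apart on the first principal component, which held 34.7% of the variance, at -38.1 against -8.38 to 24.8 for the other LZ libraries. Treated library C held 1.90% of its counts in Gm42418, a noncoding gene annotated over a ribosomal RNA copy, against 0.688% to 0.882% in the other LZ libraries.

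Octyl-L2HG was followed by a small set of called genes, 33 higher and 4 lower, led in fold change by the AhR targets Cyp1a1 and Ahrr. Cyp1a1 and Ahrr rose about as much as each other, 18.4-fold and 18.2-fold, and Nqo1, Ccno, Cyp1b1, Myo18b and Gas2l3 rose 3.14-fold to 5.18-fold. Nfe2l2, the gene of NRF2 itself, rose 1.86-fold. Of the 33, 13 rose at least 2-fold. The fit was limma's moderated test over 12 libraries with Benjamini-Hochberg adjustment over all genes tested, and a gene is called at an adjusted p under 0.05. The calls are 0.24% of the genes tested in the higher and 0.0291% in the lower direction. The log2 fold changes below are on the scale log2(normalized count + 1), with their standard error (SE).

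All 37 called genes had groups that do not overlap, meaning that every treated library lay on the same side of every untreated one. That pattern was far more frequent than the calls, with 14.6% of the genes tested higher and 4.12% lower in every treated library. The median log2 fold change of all genes tested was 0.06, and its sign depended on the scaling. It was -0.016 with total-count scaling, -0.011 with a TMM scaling within each stage and 0.026 with median-of-ratios scaling. With total-count scaling 62.8% of the calls were higher, with a TMM scaling within each stage 66.7% and with median-of-ratios scaling 80.6%, against 89.2% as reported. The number of calls also moved with single libraries. Without untreated B 83 genes were called higher and 15 lower, and without treated C 20 and 13. Without untreated A they numbered 49 and 4, without untreated C 25 and 2, without treated A 22 and 2 and without treated B 23 and 2. Among the genes called higher, Ahrr, Cyp1b1 and Atxn7l1, had an untreated mean under 10 and passed the minimum through the treated libraries alone, as 4932422M17Rik did through the untreated ones.

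**Figure D1:**
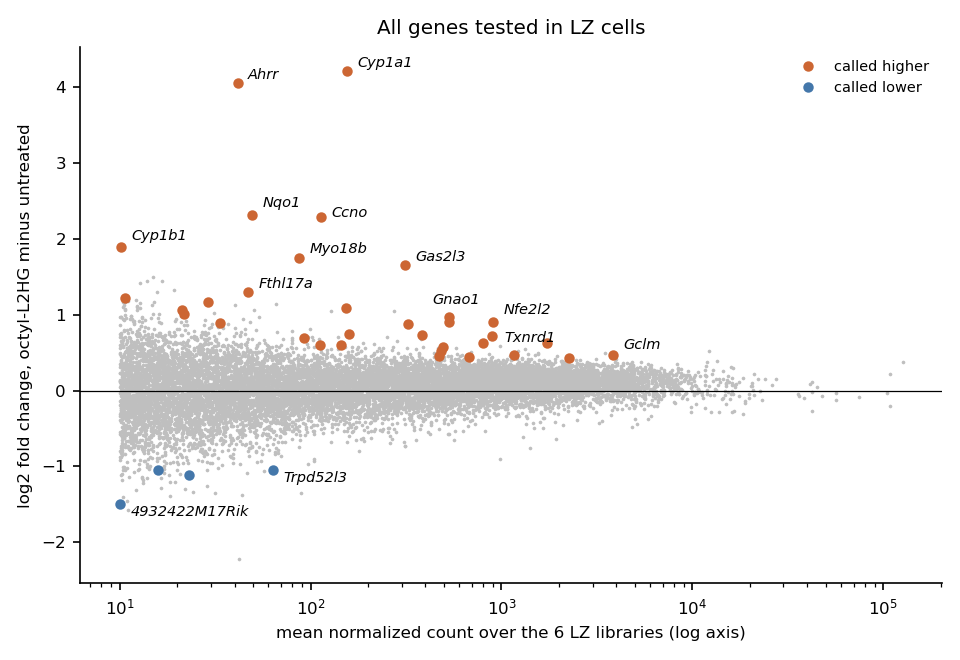
Mean normalized count over the 6 LZ libraries (x, log axis) against the log2 fold change of octyl-L2HG minus untreated (y) for the 13726 genes tested, each gene a point. The 33 genes called higher are orange and the 4 called lower are blue; Cyp1a1 at 4.21 and Ahrr at 4.06 stand above all other genes, the next called one being Nqo1 at 2.31.

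Deviations from the LZ group means correlated at 0.12 to 0.30 between an untreated and a treated library of the same code, and at -0.21 to 0.095 otherwise. On this weak pairing the difference was also fitted with the experiment as a block in the 6 LZ libraries alone. This fit called 950 genes higher (6.92% of the genes tested) and 213 lower (1.55%), with median log2 fold changes of 0.31 and -0.52. Without the block the same libraries gave 18 higher and 0 lower. The blocked fit called 32 of the 33 genes higher and 3 of the 4 lower. The exceptions were Atxn7l1 (adjusted p = 0.0624) and Fuz (adjusted p = 0.0573). The blocked calls followed transcript length. Of 1027 genes whose longest transcript is under 1000 nt, 0.974% were called higher and 2.14% lower, while of 740 genes with a transcript of 8000 nt or more 17.4% were called higher and 0.676% lower. The median log2 fold change went from -0.03 in the shortest class to 0.12 in the longest. The part of transcript length in single results was not tested, and each list below is given with its median length, which was 3148 nt over all genes tested.

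**Figure D2:**
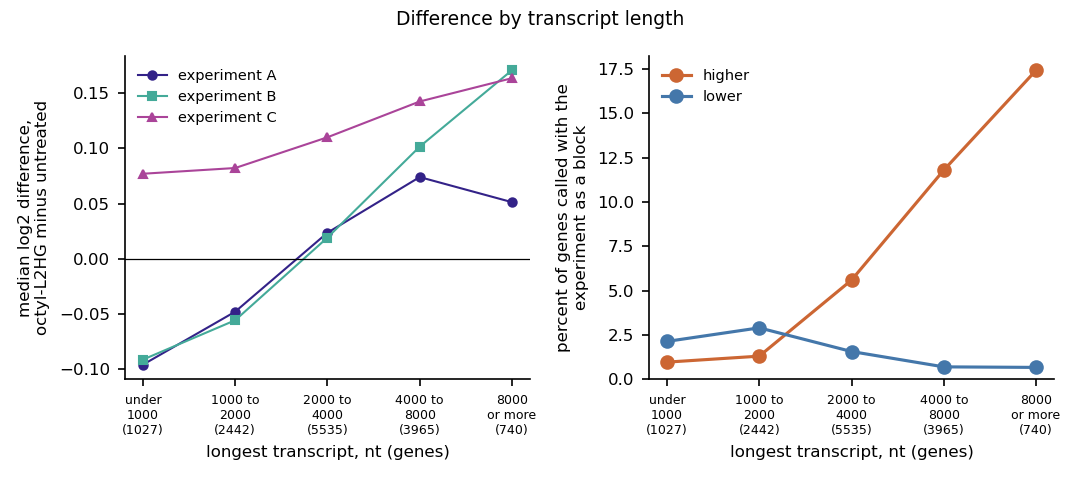
Median log2 difference of octyl-L2HG minus untreated in each experiment (left) and percent of genes called with the experiment as a block (right) for 5 classes of the longest annotated transcript in nt, with the number of genes in parentheses. The median difference was higher in the class of 4000 to 8000 nt than in the class under 1000 nt in all 3 experiments, and the share called higher went from 0.974% to 17.4%.

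Of the 10 tested members of the AhR pathway list, 4 were called higher and none lower, against 0.24% and 0.0291% of all genes tested. In 8 (80%) every treated library exceeded every untreated one, against 14.6% of all genes. With the block 7 (70%) were called higher, against 6.92%. The 4 called were Cyp1a1, Ahrr, Cyp1b1 and Nqo1, which is on the NRF2 list as well. Ahrr and Cyp1b1 passed the minimum through the treated libraries alone. All 10 fold changes were above 0, with a median of 0.42. The median transcript length of the list was 3444 nt. Its other 7 members fell below the minimum, the most counted being Arnt2 at a mean of 8.77, and Cyp1a2, the neighbour and relative of Cyp1a1, stood at 1.55 untreated and 3.203 treated. Lower means with treatment were found for Arnt2 (10.3 and 7.21), Ugt1a6a (3.09 and 1.07), Cyp2s1 (2.23 and 0.961) and Aldh3a1 (2.31 and 0.257). Ugt1a7c stood at 0.765 and 0.770, and Ugt1a6b had no count. These members rest on few reads.

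Cyp1a1 encodes a cytochrome P450 that oxidizes aromatic hydrocarbons and is the best known target of AhR (chromosome 9, 57687928 to 57703824 in GRCm38). It stood at 8.69, 22.3 and 17.2 normalized counts in untreated A, B and C and at 274, 309 and 304 in the treated libraries. The treated libraries lay close to each other and far above all untreated ones, a difference of 4.21 ± 0.35 on the log2 scale (± SE, adjusted p = 3.99e-05). Ahrr encodes the AhR repressor, which competes with AhR for ARNT and is itself induced by it (chromosome 13, 74211118 to 74292331). It went from 2.61, 2.35 and 8.03 to 80.9, 77.1 and 77.8 (log2 difference 4.06 ± 0.39 SE, adjusted p = 0.000112). Untreated C was the highest untreated library and still far below the lowest treated one. Cyp1b1, another P450 of the same family (chromosome 17, 79701537 to 79715061), went from 5.22, 2.35 and 3.44 to 16.2, 10.6 and 23.1 (log2 difference 1.90 ± 0.31 SE, adjusted p = 0.0133). Its groups did not overlap, but its counts were low, and it was not called without untreated C (adjusted p = 0.0565), with voom weights or in a fit of the LZ libraries alone (adjusted p = 0.214).

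The receptor and its partners moved less. Ahr itself had a mean of 73.0 untreated and 97.9 treated and was not called (log2 difference 0.42 ± 0.50 SE, adjusted p = 0.802). Tiparp encodes a poly(ADP-ribose) polymerase that is induced by AhR and restrains it. It stood at 1115, 1304 and 1266 untreated and 1685, 1596 and 1641 treated, with an adjusted p of 0.159 without and 0.00293 with the block. Arnt, the partner of AhR, had means of 864 ± 48.8 and 1046 ± 70.7 (SD, n = 3) and an adjusted p of 0.0332 with the block. Ptges3, which encodes the cochaperone p23, had means of 7984 ± 662 and 9402 ± 677 and an adjusted p of 0.0161 with the block. The largest log2 fold changes of this list were those of Cyp1a1, Ahrr, Nqo1 and Cyp1b1, while Tiparp, Arnt and Ptges3 were called only with the block. The part of the receptor in these changes was not tested.

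RefSeq promoter windows, from 250 bases before to 50 after the annotated start in GRCm38.p6, are shown for the AhR targets Cyp1a1, Ahrr and Cyp1b1, which carry large changes and are known to respond to the receptor. Capitals mark the core GCGTG or its reverse complement, CACGC.
Cyp1a1, chr9:57697363-57697662, plus strand: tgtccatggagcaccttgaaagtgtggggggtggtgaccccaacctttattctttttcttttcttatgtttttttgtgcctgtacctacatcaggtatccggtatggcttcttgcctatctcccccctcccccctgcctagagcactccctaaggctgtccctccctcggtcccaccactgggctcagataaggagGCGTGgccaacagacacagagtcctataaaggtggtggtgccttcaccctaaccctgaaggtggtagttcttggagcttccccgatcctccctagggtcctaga
Ahrr, chr13:74292282-74292581, minus strand: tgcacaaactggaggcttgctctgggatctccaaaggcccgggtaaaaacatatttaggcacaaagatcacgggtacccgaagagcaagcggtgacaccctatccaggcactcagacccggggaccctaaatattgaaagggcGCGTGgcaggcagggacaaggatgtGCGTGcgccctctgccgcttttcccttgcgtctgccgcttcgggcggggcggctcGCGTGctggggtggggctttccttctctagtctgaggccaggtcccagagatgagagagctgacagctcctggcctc
Cyp1b1, chr17:79715012-79715311, minus strand: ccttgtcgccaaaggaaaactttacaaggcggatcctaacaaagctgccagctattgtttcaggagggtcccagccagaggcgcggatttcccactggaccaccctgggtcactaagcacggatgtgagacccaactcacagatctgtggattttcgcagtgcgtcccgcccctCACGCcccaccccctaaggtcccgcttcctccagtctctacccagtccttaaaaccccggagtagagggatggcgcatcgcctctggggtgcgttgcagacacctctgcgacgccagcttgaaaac
The windows of Cyp1a1 and Cyp1b1 hold 1 match each, and that of Ahrr holds 3. The core is short and frequent: 32.4% of all 32851 windows hold it on either strand, as do 51.1% of the windows of genes tested. Windows were found for 30 of the 33 genes called higher, and 17 of these 30 genes (56.7%) hold the core in a window, against 56.6% of the 9869 tested genes with a window. A match is a description of the sequence and not evidence of binding.

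Of the 37 tested members of the NRF2 and antioxidant list, 4 were called higher, none lower, with Nqo1 counted in the AhR list too. Of all genes tested 0.24% and 0.0291% were called. In 14 members (37.8%) every treated library exceeded every untreated one, against 14.6% of all genes. With the block 12 were called higher and none lower, which is 32.4% of the members, against 6.92% of all genes. The median log2 fold change was 0.19 and the median transcript length 2673 nt. Genes of 2000 to 4000 nt were called higher with the block in 5.60% of cases.

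Nfe2l2 (chromosome 2, 75675513 to 75704641) stood at 564, 669 and 651 in the untreated and 1255, 1107 and 1152 in the treated libraries (log2 difference 0.90 ± 0.13 SE, adjusted p = 0.00376). Every treated library was well above every untreated one, and the call held when any library was left out. Nqo1 encodes a quinone reductase that both AhR and NRF2 are known to induce (chromosome 8, 107388225 to 107403206). It went from 15.6, 14.1 and 18.4 to 87.0, 79.2 and 82.6 (log2 difference 2.31 ± 0.37 SE, adjusted p = 0.0124). The groups lay far apart in all experiments, with log2 differences of 2.40, 2.41 and 2.11, but the call was lost without treated A, B or C, at adjusted p-values of up to 0.0766. Txnrd1, the cytosolic thioredoxin reductase (chromosome 10, 82833951 to 82897712), went from 689, 652 and 676 to 1171, 1032 and 1129 (log2 difference 0.72 ± 0.08 SE, adjusted p = 0.000537). Gclm encodes the regulatory subunit of the enzyme that starts glutathione synthesis (chromosome 3, 122245557 to 122270732). It went from 2969, 3476 and 3199.8 to 4773, 4378 and 4182 (log2 difference 0.47 ± 0.09 SE, adjusted p = 0.0347). Its groups did not overlap, yet its call was lost under each of the 3 other scalings and in all leave-one-out fits except that without untreated B (adjusted p up to 0.198).

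Other NRF2 targets, named here after their values were seen, passed only with the block. Gsta4, a glutathione transferase, had means of 25.01 untreated and 55.8 treated (adjusted p = 0.00548 with the block). Hmox1, the inducible haem oxygenase, had means of 72.6 and 126.5 (0.00482), Gclc, the catalytic partner of Gclm, 4511 and 5503 (0.00621), and Ftl1, the ferritin light chain, 1092 and 1464 (0.00213). Without the block none of these 4 was called, the lowest adjusted p being 0.270 for Gclc. Keap1, the inhibitor of NRF2, had means of 152 and 194 and was called in neither fit. Slc7a11, the cystine carrier, was also called with the block (adjusted p = 0.0287), going from 250.4, 275 and 422 to 527, 385 and 470.3, although untreated C lay above treated B. Members that overlapped and stayed near their untreated level include Sod1 and Fth1, a superoxide dismutase and the ferritin heavy chain, at means of 8616 and 8749 and of 5060.2 and 5106.

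**Figure D3:**
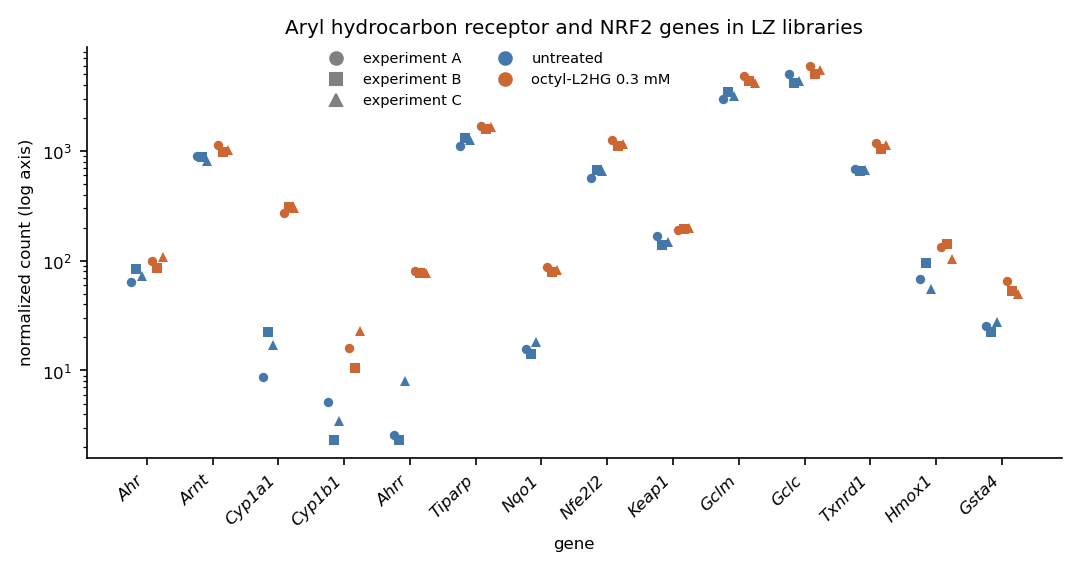
Normalized count (y, log axis) of 14 AhR and NRF2 pathway genes in each LZ library, blue for untreated and orange for 0.3 mM octyl-L2HG, with circles, squares and triangles for experiments A, B and C. Cyp1a1, Ahrr and Nqo1 show wide gaps between the groups, while the groups of Ahr, Arnt and Keap1 lie close together.

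The promoter windows of Nqo1, Gclm and Nfe2l2, 3 of the 4 NRF2 list members called, are shown with the core TGANNNNGC, read on either strand, in capitals. They are shown because Gclm and Nfe2l2 hold 1 match each and Nqo1, the most changed of them, holds none in this window.
Nqo1, chr8:107403156-107403455, minus strand: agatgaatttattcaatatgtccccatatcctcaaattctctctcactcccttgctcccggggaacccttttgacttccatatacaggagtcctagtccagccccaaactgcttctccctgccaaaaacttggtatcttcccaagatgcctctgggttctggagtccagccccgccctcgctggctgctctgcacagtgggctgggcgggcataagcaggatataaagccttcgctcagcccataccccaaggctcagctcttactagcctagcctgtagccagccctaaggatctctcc
Gclm, chr3:122245307-122245606, plus strand: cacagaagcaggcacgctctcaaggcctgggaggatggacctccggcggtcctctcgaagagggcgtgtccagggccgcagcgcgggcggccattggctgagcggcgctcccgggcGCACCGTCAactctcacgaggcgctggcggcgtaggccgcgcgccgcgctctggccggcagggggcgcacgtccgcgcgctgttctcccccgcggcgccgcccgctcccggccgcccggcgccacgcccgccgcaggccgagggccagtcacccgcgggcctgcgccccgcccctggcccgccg
Nfe2l2, chr2:75704614-75704913, minus strand: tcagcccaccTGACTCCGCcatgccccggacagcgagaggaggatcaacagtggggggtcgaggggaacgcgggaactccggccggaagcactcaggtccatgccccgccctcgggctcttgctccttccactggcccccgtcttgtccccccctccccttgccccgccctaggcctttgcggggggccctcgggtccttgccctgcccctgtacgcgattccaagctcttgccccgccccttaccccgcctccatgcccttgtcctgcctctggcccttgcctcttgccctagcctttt
The known response element of a gene may lie outside a 300-base window. The core is held by 41.3% of all windows and by 43.6% of those of genes tested. Of the 30 genes called higher that have a window, 17 (56.7%) hold it, against 48.3% of the tested genes with a window. Txnrd1 has 3 annotated starts, and 2 of its 3 windows hold the core.

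Genes outside these pathways made up most of the calls. Ccno encodes cyclin O, which is needed where multiciliated cells multiply their centrioles (chromosome 13, 112987802 to 112990777). It went from 33.0, 46.9 and 34.4 to 201, 213 and 153 (log2 difference 2.28 ± 0.25 SE, adjusted p = 0.000301). The lowest treated library was still over 3 times the highest untreated one, and it was the only gene called among the 14 tested of the multiciliated cell list. The median log2 fold change of that list was 0.08, and with the block Rfx2, a ciliary transcription factor, was also called higher and Tfdp1, an E2F partner, lower. Gas2l3 links actin to microtubules and acts in cytokinesis (chromosome 10, 89408823 to 89443967). It went from 135, 154 and 162 to 491, 454 and 470.3 (log2 difference 1.65 ± 0.17 SE, adjusted p = 0.000164), the only call among 42 division regulators and spindle genes. The median log2 fold change of those 42 was 0.01.

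Myo18b, an unconventional myosin known from muscle (chromosome 5, 112688876 to 112896362), went from 33.0, 49.3 and 36.7 to 139, 147 and 118 (log2 difference 1.75 ± 0.15 SE, adjusted p = 4.09e-05). Gnao1, a G protein alpha subunit (chromosome 8, 93809966 to 93969388), stood at 434, 305 and 334 untreated and 830.1, 580.1 and 694 treated (log2 difference 0.97 ± 0.13 SE, adjusted p = 0.00289). Experiment A was the highest in both groups of Gnao1, and the difference was close to the same in each experiment, at 0.93, 0.92 and 1.05. Fthl17a, an X-linked ferritin heavy chain relative (chromosome X, 85249679 to 85270288), went from 27.0, 21.1 and 33.3 to 73.2, 64.5 and 63.2 and was the only X-linked gene called. Pgap1, which removes an acyl chain from GPI anchors (chromosome 1, 54472994 to 54557684), went from 93.0, 81.0 and 120.4 to 219, 187 and 215. Hunk, a serine/threonine kinase (chromosome 16, 90386013 to 90499553), went from 19.995, 17.6 and 14.9 to 40.0, 37.0 and 43.7. None of these groups overlapped, at adjusted p-values of 0.0133, 0.0143 and 0.0016. The call of Fthl17a was lost without treated A or B (adjusted p up to 0.0862) and that of Pgap1 without treated A or C (up to 0.1), while that of Hunk held.

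Genes of low count that rose at least 2-fold include Cc2d2b with 10.4, 12.9 and 17.2 untreated and 25.4, 28.5 and 32.8 treated (chromosome 19, 40748753 to 40827743), and Stx8, a SNARE of endosomes, with 10.4, 18.8 and 13.8 against 26.2, 28.5 and 32.8 (chromosome 11, 67966193 to 68207148). Their adjusted p-values were 0.0148 and 0.0247. The call of Cc2d2b was lost without treated B or C (up to 0.0812), and that of Stx8 without untreated C or any treated library (up to 0.0987). Both stand far higher in untreated PD cells, at 3605 ± 474 and 806 ± 34.8 (SD, n = 3), as do Hunk at 726 ± 66.6 and Myo18b at 504 ± 30.05, while Cyp1a1, Nqo1 and Gas2l3 stand lower there, at 3.16 ± 0.532, 2.98 ± 1.95 and 19.5 ± 3.05.

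The other genes called higher changed by 1.35-fold to 2.55-fold. Lgals8, a galectin that binds glycans of damaged endosomes, went from 228 ± 19.98 to 419 ± 24.5 (log2 difference 0.88 ± 0.09 SE, adjusted p = 0.000164). Gpr160, an orphan receptor, went from 291 ± 34.6 to 481 ± 27.5 (log2 difference 0.73 ± 0.10 SE, adjusted p = 0.0016). The remaining ones were Atxn7l1, AA986860, Tgif1, a homeodomain corepressor, Psmd5, a chaperone of proteasome assembly, Ciz1, Sfmbt2, a Polycomb group protein, Asap1, an Arf GTPase activator, Scpep1, a serine carboxypeptidase, Usp6nl, Ngly1, a cytosolic glycanase, Tada2b, an adaptor of histone acetyltransferases, Rapgef1, an activator of the Rap GTPase, Ech1, described below, and the noncoding genes Gm10010 and 9330102E08Rik. Gm10010 and 9330102E08Rik lie beside each other on chromosome 6, at 128187818 to 128200623 and 128169704 to 128183803. Ciz1, Scpep1, Usp6nl, Ngly1, Tada2b and Rapgef1 lost their call under each of the 3 other scalings, as did Stx8. Of the 33 genes called higher, 17 stayed called without treated A, 19 without treated B, 20 without treated C, 23 without untreated C, 28 without untreated A and 32 without untreated B. The rest lost the call or fell below the minimum.

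**Figure D4:**
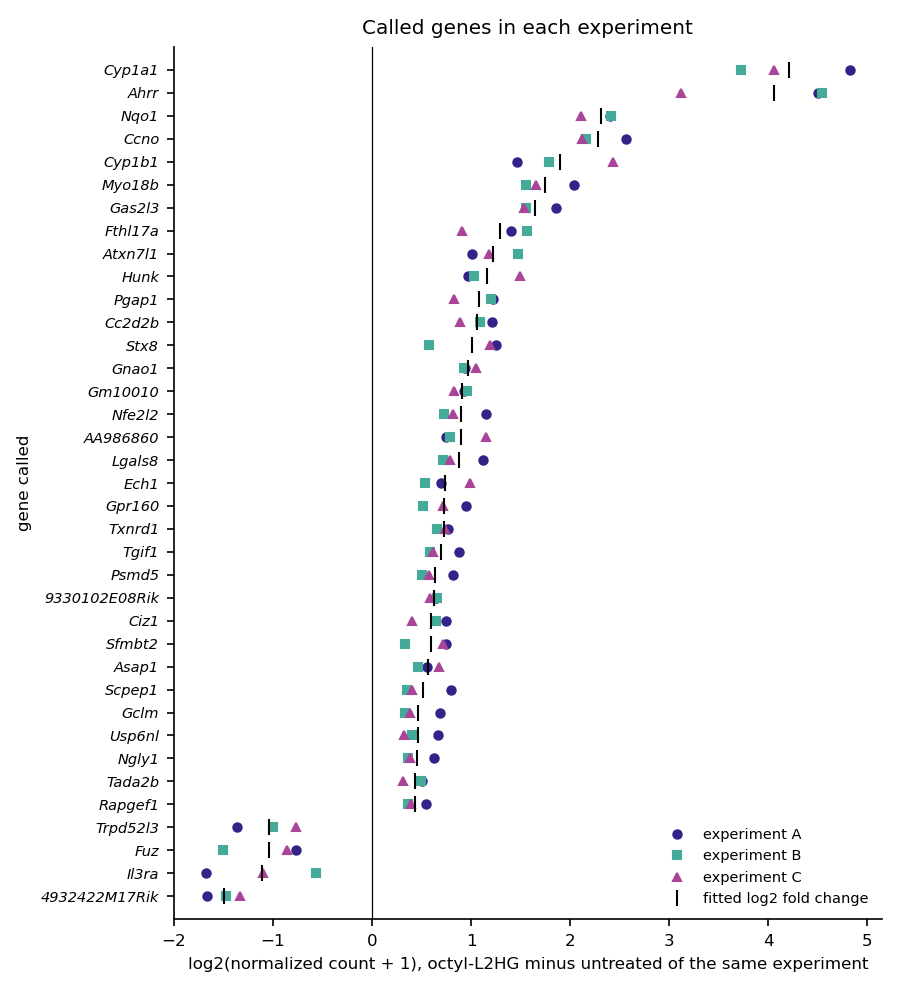
Difference of log2(normalized count + 1) between the treated and the untreated library of the same experiment (x) for each of the 37 called genes (y), with circles, squares and triangles for experiments A, B and C and a bar for the fitted log2 fold change. All 3 experiments lie on the same side of 0 for each gene, from Cyp1a1 at 4.83, 3.73 and 4.07 to Rapgef1 at 0.55, 0.36 and 0.40.

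Of the 13726 genes tested, 4 were called lower. Trpd52l3, a member of the tumour protein D52 family (chromosome 19, 30003790 to 30006018), fell from 104, 72.8 and 81.4 to 40.0, 35.9 and 47.4 (log2 difference -1.04 ± 0.14 SE, adjusted p = 0.0016). Il3ra, the alpha subunit of the interleukin-3 receptor (chromosome 14, 14346275 to 14356011), fell from 39.1, 27.0 and 29.8 to 11.6, 18.0 and 13.4 (log2 difference -1.11 ± 0.18 SE, adjusted p = 0.0133), a call lost without treated A (adjusted p = 0.0766). Fuz, an effector of planar cell polarity in cilium formation, had means of 21.9 ± 3.51 and 10.1 ± 1.39, and the noncoding 4932422M17Rik 15.4 and 4.73. No treated library reached an untreated one in these 4 genes. The call of 4932422M17Rik was lost without treated B (adjusted p = 0.0715) and that of Fuz without untreated C, treated A or treated B (up to 0.0969). All 4 stand higher in untreated PD than in untreated LZ cells, at 2665 ± 125, 516 ± 40.6, 396 ± 57.6 and 352 ± 16.3, as do 26 of the 33 genes called higher. The same share over all genes tested is not given here, so these counts have no background to be read against. The 2 stages also differ in culture time, 6 days for LZ and 48 hours for PD cells. The share of pachytene and diplotene markers was 0.257% ± 0.0366 untreated and 0.230% ± 0.00974 treated. The part of such cells in these falls was not tested.

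Of the 50 tested genes of fatty acid oxidation and peroxisomes, 1 was called higher and none lower, against 0.24% and 0.0291% of all genes tested. In 18 (36%) every treated library exceeded every untreated one, against 14.6% of all genes. The reverse held in 1 (2%), against 4.12% of all genes. With the block 10 (20%) were called higher, against 6.92% of all genes and 5.60% of those of 2000 to 4000 nt. The median transcript length was 2946 nt. Ech1, an enoyl-CoA isomerase of peroxisomes and mitochondria (chromosome 7, 28825217 to 28832247), stood at 125, 123 and 107 untreated and 203, 179.6 and 213 treated (log2 difference 0.74 ± 0.11 SE, adjusted p = 0.00543). The call did not hold in a fit of the LZ libraries alone (adjusted p = 0.113).

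Cpt1a encodes the carnitine acyltransferase that admits long-chain fatty acids to mitochondria (chromosome 19, 3322334 to 3385733). It stood at 202, 169 and 161 untreated and 413, 341 and 351 treated, with log2 differences of 1.03, 1.01 and 1.12 in the 3 experiments. The rise was alike in each experiment and the groups were well apart, but the fit over 12 libraries gave an SE of 0.52 and an adjusted p of 0.43. Cpt1a is nearly absent from PD libraries, at 2.75 ± 2.99 untreated and 3.82 ± 1.99 with oxamate. In the LZ libraries alone the adjusted p was 0.00358 without and 6.06e-06 with the block. Hadh, the short-chain hydroxyacyl-CoA dehydrogenase of mitochondria (chromosome 3, 131233419 to 131272101), stood at 28.7, 38.7 and 29.8 against 66.2, 78.2 and 62.0 (adjusted p = 0.229, and 0.00416 with the block). Pex16 and Pex26, which serve the assembly of peroxisomes, had means of 73.4 and 121 and of 29.8 and 51.5, with adjusted p-values of 0.0101 and 0.0453 with the block. Hadh, Pex16 and Pex26 were named after their values were seen.

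For the counts of list members below, 1330 of all genes tested (9.69%) were higher and 407 (2.97%) lower with unadjusted p below 0.05. This balance moved with the scaling: 671 genes were higher and 991 lower with total-count scaling. A TMM scaling within each stage gave 731 and 924, and median-of-ratios scaling 890 and 617. With the block 6.92% of all genes tested were called higher and 1.55% lower. Of the 27 tested markers of meiotic entry, leptotene and zygotene none was called by limma in either fit, none had an unadjusted p below 0.05, and their median log2 fold change was -0.0044. Dmc1, the meiotic recombinase, had means of 4074 and 3729.8, with every treated library below every untreated one (adjusted p = 0.813), and Stag3, a meiotic cohesin subunit, 6531 and 7100.1 (adjusted p = 0.509). Rec8, another meiotic cohesin subunit, had 83.2 and 109 with overlapping groups, and Mei4 had 16.6 and 28.0, also with overlap (adjusted p = 0.478). None was called among 33 genes of break formation and strand exchange (1 higher with unadjusted p below 0.05), 30 of the synaptonemal complex, axis and cohesin (3 higher and 1 lower) and 25 crossover factors (2 higher). Their medians were 0.11, 0.02 and 0.05. With the block 3, 2 and 2 of these were called higher (9.09%, 6.67% and 8% of the lists), close to the 6.92% of all genes tested. Among them were Mre11a and Rad50, which process breaks, and Wapl and Pds5a, which release cohesin. Of 25 genes of ATM and ATR signalling none was called, and 4 were higher with unadjusted p below 0.05. With the block 4 (16%), Hus1, Rad17, Rnf8 and Atm, were called higher, in a list with a median transcript length of 4640 nt. Of all genes of 4000 to 8000 nt 11.8% were called higher with the block.

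None of 30 genes of 2-hydroxyglutarate and 2-oxoglutarate metabolism was called (2 higher with unadjusted p below 0.05), and the median log2 fold change was 0.08. Mdh1b had the smallest p of this list, with means of 9.63 and 17.5, overlapping groups and an adjusted p of 0.185. Its untreated mean lay under the minimum of 10. D2hgdh, which oxidizes the D form, had means of 13.6 and 19.5 with overlapping groups. Mdh2, the mitochondrial malate dehydrogenase, had 1726 and 2124 and passed only with the block (adjusted p = 0.00961). Of 55 dioxygenases that use 2-oxoglutarate none was called (1 higher with unadjusted p below 0.05), and 10 were higher in every treated library, or 18.2% against the 14.6% of all genes. Kdm2a, a histone H3 lysine demethylase, had 7655 and 8791 and was called higher with the block (adjusted p = 0.0362), and the Y-linked Kdm5d, another such demethylase, had 1328 and 1045 and was called lower with it (adjusted p = 0.0107). Among 35 histone and arginine methyltransferases none was called, with 6 higher and 1 lower with unadjusted p below 0.05, and 11 (31.4%) were higher in every treated library, against 14.6% of all genes. With the block 8 were called higher, Setd2, Suz12, Ash1l, Kmt2a, Kmt2c, Nsd1, Dot1l and Ehmt1, all between 0.21 and 0.30 in log2 fold change. The median transcript of that list was 5652 nt, and genes of 4000 to 8000 nt were called higher with the block in 11.8% of cases against 22.9% of the list. Of 23 targets of the hypoxia-inducible factors none was called (2 higher with unadjusted p below 0.05), with Bnip3l, a mitophagy receptor, at 1089 and 1314.

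Lists of energy metabolism and stress gave few calls. Of the 67 nuclear-encoded respiratory chain genes none was called in the fit over 12 libraries (2 higher and 2 lower with unadjusted p below 0.05). Cox6b2, a testis form of a cytochrome oxidase subunit, stood at 1835, 948 and 1103 untreated and 715, 594 and 690.2 treated (log2 fold change -0.90, adjusted p = 0.0591, and 0.00399 with the block). Untreated A was far above the other untreated libraries of this gene, and no treated library reached an untreated one. Of 12 tested mitochondrial mRNAs none was called and none had an unadjusted p below 0.05, but mt-Cytb, mt-Nd2 and mt-Nd4 were called lower with the block, and the 13 mitochondrial mRNAs together took 1.60% to 2.20% of the counts untreated and 1.69% to 2.08% treated. Glycolysis (23 genes) and the tricarboxylic acid cycle (27) had no call, with 4 higher and 1 lower and 2 higher and 1 lower with unadjusted p below 0.05. Of 32 targets of ATF4, the amino acid stress factor, none was called (2 higher with unadjusted p below 0.05). In 8 of them (25%) every treated library exceeded every untreated one, against 14.6% of all genes tested. Sars, a tRNA synthetase, had means of 196 and 281 (adjusted p = 0.0146 with the block). The 32 heat shock and unfolded protein genes, none of them with an unadjusted p below 0.05, and the 30 p53 and apoptosis genes, with 2 higher, had no call either.

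Of 27 genes of the piRNA pathway, which silences transposons in germ cells, none was called (4 higher and 2 lower with unadjusted p below 0.05). With the block they went both ways, with Tdrd1 and Tdrd12 higher and Tdrd9, Gpat2, Tdrkh and Btbd18 lower. Tdrd9, a helicase of the pathway, had means of 1561 and 1137. The 35 genes of cholesterol and fatty acid synthesis had no call (1 higher with unadjusted p below 0.05), and 2 were called higher with the block, Acaca, which makes malonyl-CoA, and Scap. None of 6 tested carboxylesterases and related hydrolases, which can cleave esters, was called (1 lower with unadjusted p below 0.05).

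**Figure D5:**
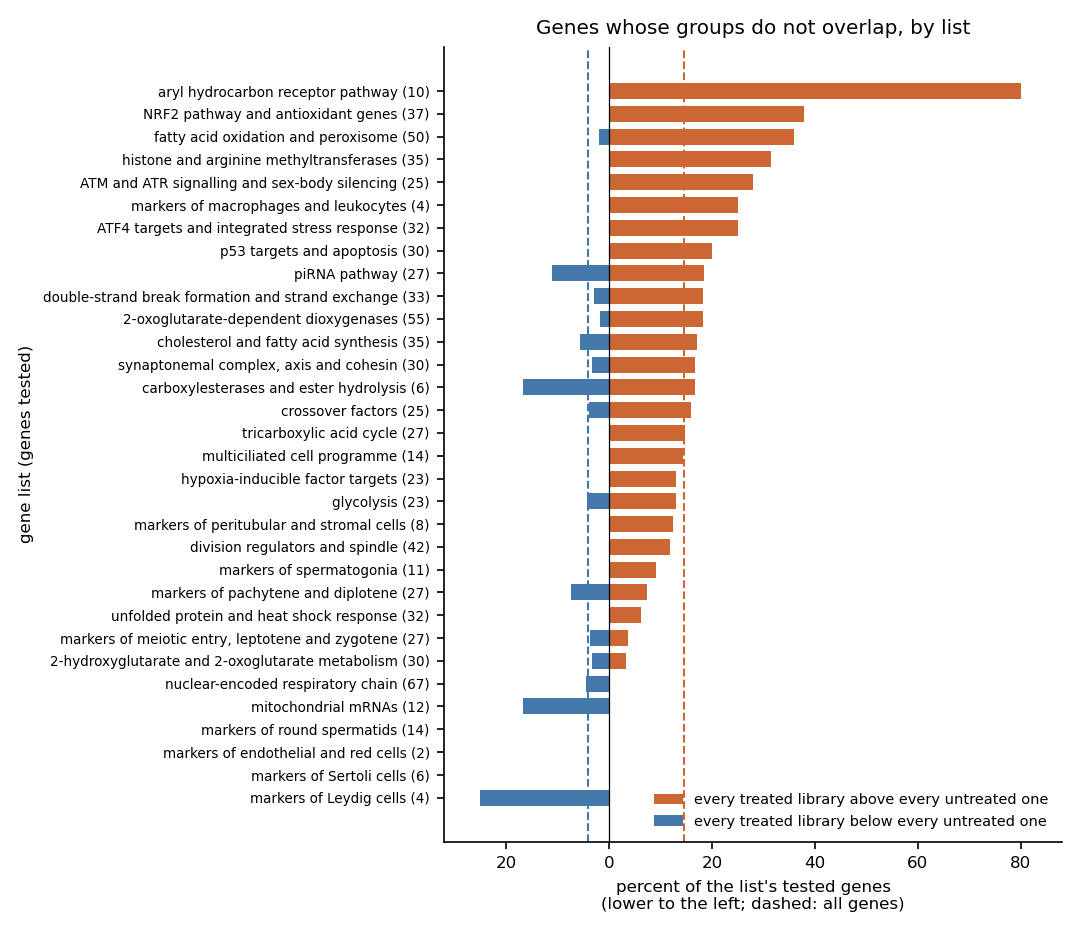
Percent of the tested genes of each list for which every treated library lay above every untreated one (orange, to the right) or below (blue, to the left), with dashed lines at 14.6% and 4.12%, the shares among all genes tested, and the number of tested genes in parentheses. The AhR list reaches 80%, followed by NRF2 at 37.8% and fatty acid oxidation at 36%. Of the AhR genes counted, Ahrr and Cyp1b1 passed the minimum through the treated libraries alone, and Nqo1 is on the NRF2 list as well. The lists were chosen with earlier results known.

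Genes just short of the threshold, with a mean of at least 100, are listed next, picked by their p. The 10 higher ones with the smallest p were Mrs2, a mitochondrial magnesium channel, Fam168a, Lpcat3, which remodels phospholipids, Abl1, a tyrosine kinase, Tprgl, Spc25, a kinetochore subunit, Xrcc2, a recombination protein, Lpin2, Plagl2 and Rai14, at adjusted p-values of 0.0506 to 0.0691. The 10 lower ones were Cox6b2, Grb10, H1f10, a linker histone, Gml, Gnas, which encodes the stimulatory G protein alpha subunit, 1700080O16Rik, Klf4, Tdrd9, Mad2l1bp and Zfp42, at 0.0591 to 0.163. In all 20 the groups did not overlap, and all but Zfp42 (adjusted p = 0.0561) were called with the block. Both counts follow closely from the choice by p and add no support. Of all genes tested 14.6% were higher and 4.12% lower without overlap, and the block called 6.92% higher and 1.55% lower. In 7 of the 10 lower genes untreated A was the highest library, where without overlap the highest had to be an untreated one.

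The authors' deposited table of the same comparison, made with a count model, calls 78 genes higher (0.289% of 27034 with an adjusted p) and 56 lower (0.207%). Of the genes called here, 27 of the 33 higher and 3 of the 4 lower are also called in the authors' deposited table. For Cyp1a1 the authors' deposited table gives a log2 fold change of 4.22, for Ahrr 4.19 and for Nqo1 2.34. Genes with a mean of at least 100 that are called in the authors' deposited table and not here include Cpt1a, Ripk4, a kinase, Hic2, Larp1, an RNA-binding protein, Zfp652, Gtf3c1, Lpcat3 and Mrs2 in the higher direction. In the lower direction the authors' deposited table adds Cox6b2, H1f10, Gnas, 1700080O16Rik, Macroh2a1, a histone variant, Marcksl1, 4931428F04Rik and Tex13c2. With the block all 16 of these were called here too, but both analyses use the same counts, so this is no independent support. Untreated A, which stood apart on the first principal component, was the highest library in all 8 of the lower genes. Their groups did not overlap, so the highest library had to be an untreated one. The same share over all genes tested is not given here, and the part of untreated A in these falls was not tested.

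Close to the minimum count, the genes just inside it were Prr23a3, Mgat4d and Nos3, with means of 10.0005, 10.0087 and 10.0091, and those just outside were Bmf, Vmn1r76 and Gsg1, with 9.997, 9.994 and 9.993. Their single libraries ranged from 1.15 to 21.9 normalized counts. Below the minimum, 493 of the 18438 genes with at least 1 count were higher and 561 lower in every treated library. Of the 13726 genes tested, 2010 were higher and 566 lower in this way. Fewer cells of a type and less RNA per cell cannot be told apart in such bulk libraries.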

How the data were processed

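RNA was captured by its poly-A tail and sequenced with a stranded kit, per the labels. Per the submitters' processing notes, DESeq2 1.22.2, HTSeq 0.6.0, TopHat2 2.1.1, cutadapt 1.18 and bcl2fastq 2.18.0.12 were used, with GRCm38. The authors deposited counts per gene, and 6255 genes carry a question mark there, so a count test was replaced by limma. The deposited table also holds the authors' log2 fold changes and adjusted p-values, and 12 columns of the authors' normalized values that were not used. Counts were scaled by TMM (trims of 30% and 5%), genes under a mean of 10 were dropped and log2(normalized count + 1) was tested with limma 3.58.1 (trend, robust; R 4.3.3) over 12 libraries and 4 groups, two-sided, with Benjamini-Hochberg adjustment. The procedure was tested on simulated data. Libraries of the same column code correlated at 0.12, 0.30 and 0.15 in their deviations from the LZ group means, and those of different codes at -0.21 to 0.095. The codes were therefore taken to pair them, though the labels do not state this pairing. The labels name independent experiments, not animals, so p-values measure the spread between these samples. Genes set for naming were the called genes and the 3 members of each list with the smallest p, though some of these members are not named above. Also set were the 10 uncalled genes per direction with the smallest p and the 8 per direction that only the authors' table calls. These last 2 sets had a mean of at least 100. Values in every library are given for the 12 largest rises and falls with a mean of at least 20. Other list members, such as those called only with the block, were named after their values were seen. Members, lists and tests were chosen with earlier results of these data known. Alternatives changed scaling, filter, pseudocount, libraries, weights and block. Transcript lengths came from GENCODE and promoters from RefSeq.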

Additional observations from a re-analysis of the deposited data

How the results depend on the processing

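Against 33 genes called higher and 4 lower, total-count scaling gave 16 lower, a TMM scaling within each stage 13, no filter 9, a minimum of 50 gave 1 and voom weights 1. In the 6 LZ libraries alone limma called 18 higher and 0 lower, with 1200 higher and 415 lower at an unadjusted p below 0.05, while voom over all libraries called 35 higher. The replicate block called 63 and 8 over all libraries, 950 and 213 in LZ libraries alone and 729 and 137 with a block within each stage, an alternative chosen after seeing the data. Leaving out single libraries gave 20 to 83 higher and 2 to 15 lower. The direction of no called gene reversed, and 12 of the genes called higher were called in all leave-one-out fits and all other settings that tested them, Ahrr not being tested at the minimum of 50. Among uncalled genes the log2 difference of Nr5a1 became -0.0598, -0.0546 and -0.0199 under the 3 other scalings and that of H2-Ab1 -0.0375 and -0.0320 under total-count and within-stage scaling. Leave-one-out ranges crossed 0 for Nr5a1 (-0.197 to 0.312), H2-Ab1 (-0.083 to 0.136), Espn (-0.282 to 0.162), Ctsl (-0.0988 to 0.00566), Id4 (-0.487 to 0.0744), Egfl7 (-0.265 to 0.119) and Cnn1 (-0.962 to 0.137). The causes were not tested. Genes near the minimum of 10 rest on few reads per library.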
